A study of Homo sapiens with 16 samples.

Results

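The genes described here are 10 of the 20037 protein-coding genes of the gene table, and they are widely used as marks of the dedifferentiated state of melanoma: AXL, NGFR, EGFR, WNT5A, JUN, FOSL1, TEAD1, ZEB1, SOX9 and POU3F2. They were chosen by name, and each was examined in a window made of its gene body on GRCh38 with 10 kb on either side. WM164, an established human melanoma cell line, overexpressed either GFP (GFP cells) or the small MAF protein MAFG (MAFG cells). Occupancy was profiled by CUT&RUN, in which an antibody tethers a nuclease to chromatin in nuclei so that DNA next to the bound protein is released and sequenced. Each line gave 3 anti-MAFG libraries, 3 anti-MITF libraries and 1 H3K4me3 library, from about 250000 cells per sample. The 2 IgG samples were not analysed here. All results come from 1 cell line, the promoter driving either transgene is not given in the sources used here, and nothing states that replicates came from separate cultures. The p-values therefore measure only the spread between these libraries.

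Melanoma cells move between a melanocytic state, in which MITF and SOX10 drive pigment genes, and a dedifferentiated state with low MITF and high levels of receptor tyrosine kinases such as AXL and EGFR. AP-1 factors (JUN, FOSL1) and TEAD factors bind the enhancers that are active in the dedifferentiated state, and ZEB1 is a repressor of epithelial genes that rises in it. MAFG has no activation domain and binds DNA as a homodimer or with partners such as NRF2 and BACH1, while MITF binds E-boxes. H3K4me3 marks the starts of active or poised genes. Occupancy is not expression, and no RNA was measured in these libraries.

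The RefSeq promoter table (GRCh38.p14) held 15 starts for 6 of the 10 genes. Entries for NGFR, SOX9, FOSL1 and TEAD1 are missing from it. The 250 bases upstream of a start are shown for 4 genes, chosen because factor peaks reached them (JUN and the second listed start of WNT5A), because they carried only a weak H3K4me3 peak (the second listed start of AXL) or because no list had a peak there (the first listed start of EGFR). The sequences run 5′ to 3′ on the gene's strand, and capitals mark matches to the motifs searched.
JUN, chr1:58784048-58784297, minus strand: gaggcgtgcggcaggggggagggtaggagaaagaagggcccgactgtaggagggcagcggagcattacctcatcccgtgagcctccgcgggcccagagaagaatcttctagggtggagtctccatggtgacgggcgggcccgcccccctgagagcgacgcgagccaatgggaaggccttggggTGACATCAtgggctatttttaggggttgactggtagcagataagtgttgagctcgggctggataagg
WNT5A, chr3:55487307-55487556, minus strand: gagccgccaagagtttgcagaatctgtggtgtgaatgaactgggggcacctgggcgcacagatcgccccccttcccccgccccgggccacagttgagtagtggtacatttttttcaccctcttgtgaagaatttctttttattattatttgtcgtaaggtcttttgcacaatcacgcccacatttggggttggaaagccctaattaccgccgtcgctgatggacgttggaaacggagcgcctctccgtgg
AXL, chr19:41226505-41226754, plus strand: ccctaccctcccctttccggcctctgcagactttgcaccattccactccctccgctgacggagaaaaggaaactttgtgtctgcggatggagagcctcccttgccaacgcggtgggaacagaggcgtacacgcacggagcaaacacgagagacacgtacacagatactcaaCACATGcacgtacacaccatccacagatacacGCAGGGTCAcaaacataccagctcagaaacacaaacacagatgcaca
EGFR, chr7:55018767-55019016, plus strand: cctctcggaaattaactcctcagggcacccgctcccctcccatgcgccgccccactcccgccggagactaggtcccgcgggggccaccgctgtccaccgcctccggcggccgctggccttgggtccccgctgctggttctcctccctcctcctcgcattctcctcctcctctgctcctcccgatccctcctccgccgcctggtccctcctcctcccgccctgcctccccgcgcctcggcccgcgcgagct

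Both strands of all 35116 listed promoters of 300 bases were searched. The AP-1 site TGACTCA was in 4.95% of them, the JUN-type variant TGACATCA in 2.61%, and the cyclic AMP response element TGACGTCA in 1.85%. The MAF half-site core TGACNNNGC was in 13.3%, the E-box CACGTG in 7.26% and the E-box CATGTG in 11.1%. In the sequences shown, JUN held 1 TGACATCA at -67 to -60 from the start, and AXL held the second E-box, read here from its other strand as CACATG, at -79 to -74 and a MAF half-site core, GCAGGGTCA on this strand, at -47 to -39. The second listed start of EGFR, not shown, held 2 AP-1 sites. A match describes the letters and is not evidence of binding.

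The 6 factor lists of GFP cells held between 14879 and 26221 peaks each and the 6 of MAFG cells between 1836 and 2818. Fragment depth recovered from the deposited values was similar, at 1.2 to 2.42 fragments per kb in GFP cells and 1.23 to 1.73 in MAFG cells. The control behind the calls was 3.0-fold deeper in GFP cells, where its depth could be recovered from 1 library only, and libraries of MAFG cells were scaled by 0.452 to 0.637 before calling, against 0.969 to 1 in GFP cells. A called summit accordingly held at least 5 to 7 fragments in the lists of GFP cells and at least 8 to 12 in those of MAFG cells. The line and the depth of its control cannot be told apart, and this applies to every difference in peak number given here. By H3K4me3 at the gene, 9 of 10 melanocytic markers were marked in GFP cells and 8 of 10 in MAFG cells, against 2 and 1 of 7 fibroblast, 1 and 1 of 6 keratinocyte, 2 and 1 of 4 blood, and 1 and 1 of 3 endothelial markers. The mark was at 8 of the 10 dedifferentiation genes in GFP cells and 7 in MAFG cells, against 65.1% and 60.8% of all genes, and the peak lists do not place the line in either state.

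In GFP cells, factor peaks lay at 9 of the 10 genes, and most of them were at TEAD1 and EGFR. In MAFG cells only those 2 genes kept a factor peak. The windows held 22, 19 and 10 anti-MAFG peaks in the libraries of GFP cells (17.0 ± 6.25, SD, n = 3) and 1, 2 and 2 in those of MAFG cells (1.67 ± 0.577, SD, n = 3). The anti-MITF counts were 14, 19 and 16 (16.3 ± 2.52, SD, n = 3) against 0, 0 and 1 (0.333 ± 0.577, SD, n = 3). For both antibodies every library of GFP cells lay above every library of MAFG cells. As a share of its own list, the anti-MAFG count overlapped between the lines, at 0.0672% to 0.0839% in GFP cells and 0.0545% to 0.108% in MAFG cells. The anti-MITF share was 0.0706% to 0.0944% against 0% to 0.0401%, the latter resting on 1 peak in all. Over the windows of all genes the lists also differed, at 1.14 and 0.132 anti-MITF peaks per 100 kb in GFP and MAFG cells (1.64 and 0.0334 at the 10 genes), and 1.01 and 0.0921 anti-MAFG peaks (1.70 and 0.167). With an equal number of peaks per library the mean anti-MITF difference at the 10 genes was 0.

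**Figure D1:**
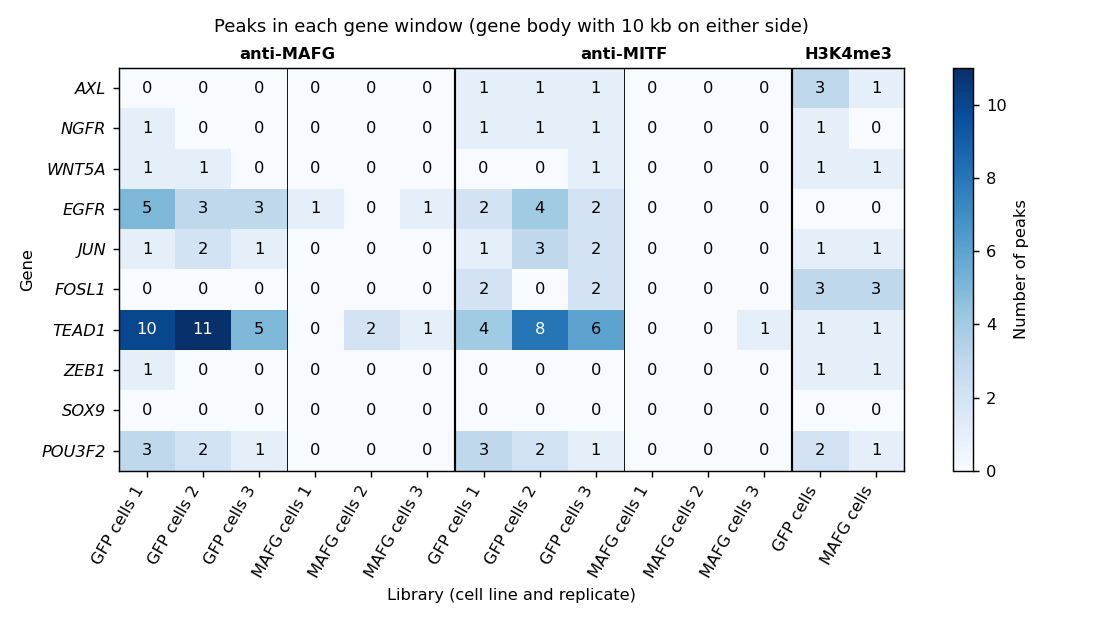
Number of peaks in each gene window (rows) in each library (columns), grouped by antibody. TEAD1 and EGFR hold 37 of the 51 anti-MAFG peaks of GFP cells and all 5 of MAFG cells, and SOX9 is at 0 throughout.

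Peak number per window was tested gene by gene with a two-sided exact permutation test that permuted the line within each antibody (400 assignments, smallest p 0.005), with Benjamini-Hochberg adjustment over the 13351 genes with a factor peak. Of the 9 genes tested, 4 were lower in MAFG cells: TEAD1, EGFR, POU3F2 and JUN (each p = 0.005, adjusted p = 0.0213, exact test). Over all genes tested 24.9% were lower, and 0% were higher, as were 0 of the 9. The median difference was -0.67 peaks per window for the 9 genes and -0.83 for all genes tested, so the direction was that of the whole set of lists. With an equal number of peaks taken from each library (1836), none of the 9 and none of all genes was called. JUN and POU3F2 lost the call without the flanks (adjusted p = 0.0593, exact test), and POU3F2 also lost it at a −log10 q of at least 5 (adjusted p = 0.128, exact test).

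A consensus region, one called in at least 2 of 3 libraries of a group, was present for anti-MAFG in GFP cells at 4 genes (EGFR, JUN, TEAD1 and POU3F2), against 37.3% of all protein-coding genes. For anti-MITF in GFP cells it was present at 7 (the same 4 with AXL, NGFR and FOSL1), against 46.6%. In MAFG cells anti-MAFG consensus regions were left at EGFR and TEAD1, against 5.1% of all genes, and both genes thus had one in both lines, against 4.65%. These 2 genes have long windows (212612 and 290317 bp), as has ZEB1 (231388 bp), which had none. The shares over all genes were not matched for window length. Anti-MITF ones were left at none of the 10, against 8.22%. Among genes marked by H3K4me3 in GFP cells the shares for anti-MAFG were 48.8% in GFP cells and 6.51% in the other line, and for anti-MITF 64.9% and 11.6%. Anti-MAFG counts did not overlap between the lines at 4 genes, against 23.2% of all genes, and anti-MITF counts at 6, against 31.7%. A test of whether the antibodies differed in their loss of peaks called no gene (smallest adjusted p over all genes 0.895, exact permutation test). In that test 0 of the 9 genes had an unadjusted p of at most 0.05. It permuted the line within each antibody. Where the lines did not overlap for either antibody, as at TEAD1, EGFR, JUN and POU3F2, it could not reach 0.05. It therefore does not show that the antibodies lost peaks alike. With 1 antibody alone the smallest p is 0.1.

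EGFR, the receptor tyrosine kinase for EGF and related ligands, lies on the plus strand at chr7:55019017-55211628. Its window held 5, 3 and 3 anti-MAFG peaks with GFP and 1, 0 and 1 with MAFG overexpressed. The anti-MITF counts were 2, 4 and 2 against 0 in every library of MAFG cells. The lines did not overlap for either antibody (difference over both antibodies -2.83 peaks per window).

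The leading region of EGFR was inside the gene body at chr7:55086017-55087786, centred 67884 bp downstream of the first listed start, well away from both listed starts. The authors' anti-MAFG fold enrichment there was 17.0, 17.7 and 12.8 in GFP cells, which ranked it 392 of 26221, 117 of 23409 and 209 of 14879 peaks. No other factor peak at the 10 genes ranked as high in its list. In MAFG cells replicates 1 and 3 called it, with folds of 6.54 (1128 of 1836) and 8.93 (767 of 2818), and replicate 2 did not. Anti-MITF called it in all 3 libraries of GFP cells (folds of 7.97, 8.28 and 13.4) and in none of MAFG cells. H3K4me3 was not called there or anywhere else in the EGFR window in either line, and 5.48% of all genes shared that pattern of no H3K4me3 with an anti-MAFG consensus region in GFP cells.

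The authors' fold divides the summit by the local background, and the parts moved in opposite ways at this EGFR region. The summit held 34, 29 and 19 fragments in GFP cells and 52 and 50 in the calling libraries of MAFG cells. Scaled to each library's genome-wide background, these were 44.8, 55.5 and 43.2 times background against 101 and 129. Every calling library of MAFG cells was thus above every library of GFP cells in signal and below every one in fold. The local background was 1.36, 1.34 and 1.28 times the genome-wide level in GFP cells and 12.05 and 9.97 times in MAFG cells, where it stood for 3 and 2 control fragments. The signal ratio of MAFG over GFP cells was 2.4 and the fold ratio 0.489. Among 1325 anti-MAFG regions called in at least 2 libraries of each line, those values fell at the 73.7th and 6.87th percentiles.

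TEAD1, a DNA-binding partner of the coactivators YAP and TAZ, spans chr11:12674421-12944737 and has the longest window of the 10. Anti-MAFG gave 10, 11 and 5 peaks in the libraries of GFP cells against 0, 2 and 1. Anti-MITF gave 4, 8 and 6 peaks against 0, 0 and 1. The lines did not overlap for either antibody (difference over both -6.67 peaks per window). With an equal number of peaks per library the difference turned to 0.67 (adjusted p = 0.873, exact permutation test), the only one of the 10 genes to change sign under any alternative tried.

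The peaks of TEAD1 formed 13 anti-MAFG and 10 anti-MITF regions along the gene. Regions were ordered by the mean, over the libraries that called them, of the rank of their best peak, which favours a region called once. By that mean the first anti-MAFG region was chr11:12817118-12818286, called by replicate 1 of GFP cells (fold 10.2, 14.3% down its list). In the same library chr11:12826996-12829530 ranked higher, at 6.88% (fold 12.3). That region was called in 3 of 3 anti-MAFG libraries of GFP cells with folds of 6.94 to 12.3, and in no library of MAFG cells. For anti-MITF the first region by mean rank was chr11:12866424-12866831, in 1 library of GFP cells (fold 6.72, 38.2%). The single anti-MITF peak placed highest in its own list was chr11:12693639-12694379 in replicate 3 (fold 7.08, 34.7%). By fold the highest was chr11:12827620-12828547 in replicate 1 (fold 7.20, 38.1%), which overlapped the anti-MAFG region chr11:12826996-12829530. Only regions at the low-coordinate end of the gene lay under H3K4me3.

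A TEAD1 region, chr11:12813773-12815575, centred 140253 bp into the gene from its low-coordinate end, was an anti-MAFG consensus region in both lines. Replicates 1 and 2 of GFP cells called it with anti-MAFG at folds of 7.27 and 5.22, and replicates 2 and 3 of MAFG cells at 8.41 and 11.3. Its signal was 15.8 and 19.1 times genome-wide background in GFP cells and 40.8 and 64.3 times in MAFG cells. Here fold and signal moved the same way: every calling library of MAFG cells was above every one of GFP cells in both. The summits differed in position, however. With GFP overexpressed they were at chr11:12814369 (replicate 1) and chr11:12813856 (replicate 2). With MAFG overexpressed, that of replicate 2 was at chr11:12814404. That of replicate 3, the higher value, was at chr11:12815206, past the ends of both GFP-cell peaks (12814644 and 12814623). The ratios of the region therefore compare different positions within it. The signal ratio was 3.01 (85.0th percentile of the 1325 regions) and the fold ratio 1.58 (86.4th percentile). Anti-MITF called part of the region in replicate 3 of GFP cells (fold 6.23) and replicate 3 of MAFG cells (fold 6.13). The latter was the only anti-MITF peak of MAFG cells at any of the 10 genes. The region carried no H3K4me3 peak in either line.

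**Figure D2:**
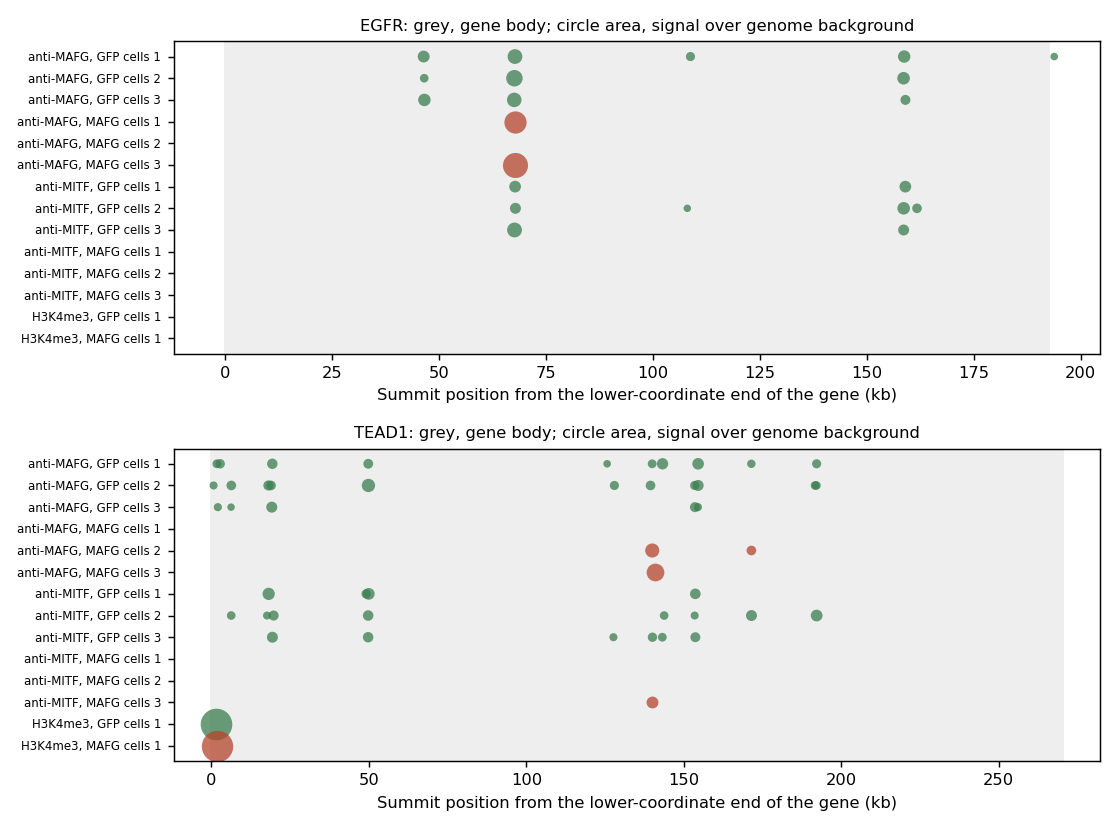
Peak summits along EGFR and TEAD1 in each library (green, GFP cells; red, MAFG cells), placed in kb from the lower-coordinate end of the gene (grey), with circle area proportional to summit fragments over genome-wide background. Factor peaks of MAFG cells fall at 1 place in EGFR and 2 in TEAD1, and H3K4me3 appears at the low-coordinate end of TEAD1 alone.

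Both retained regions depended on which libraries were counted. Without replicate 3 of the anti-MAFG libraries of MAFG cells neither was a consensus region. Without replicate 1 only TEAD1 was, and without replicate 2 only EGFR was. A region called in both lines had to pass the higher limit of the lists of MAFG cells. The median signal ratio of all 1325 such regions was 1.77, and 67.8% of them had every calling library of MAFG cells above every one of GFP cells. Their median fold ratio was 0.965, above the value at EGFR and below that at TEAD1.

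**Figure D3:**
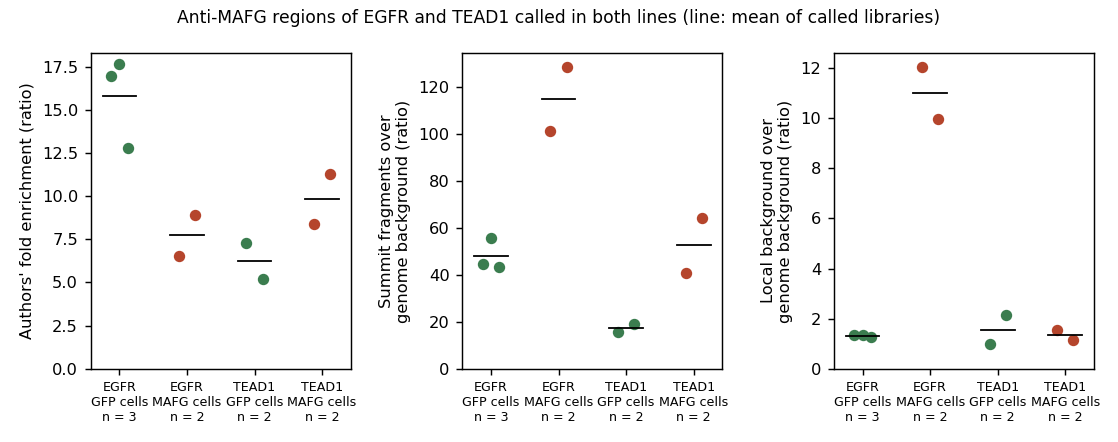
Authors' fold, summit signal and local background at the EGFR and TEAD1 regions called in at least 2 libraries of each line, 1 point per calling anti-MAFG library, with the mean as a line. At EGFR the fold is lower and the signal higher in MAFG cells, beside a local background of 9.97 and 12.05 times the genome-wide level.

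NGFR, the low-affinity neurotrophin receptor and a marker of neural crest-like melanoma cells, lies at chr17:49495293-49515008. Anti-MITF called 1 region just past its high-coordinate end, chr17:49515218-49516176, in all 3 libraries of GFP cells. Its folds were 8.90, 10.5 and 7.21, and it ranked in the upper 10.4% to 34.3% of the lists. Anti-MAFG called the place once in GFP cells (fold 4.14), and MAFG cells had 0 factor peaks in the window. The difference over both antibodies was -0.67 peaks per window (adjusted p = 0.101, exact permutation test).

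AXL, the receptor for GAS6, lies on the plus strand at chr19:41219223-41261766. Each anti-MITF library of GFP cells had 1 peak in its window, at chr19:41263146-41264091, and no anti-MAFG library and no library of MAFG cells had any. The folds were 4.30, 3.46 and 3.13, which ranked them 18294 of 19828, 19901 of 20117 and 20063 of 20102 peaks. The nearest gene end was that of HNRNPUL1, whose gene body begins 791 bp beyond AXL, so those peaks are not assigned to AXL by position. The difference was -0.50 peaks per window (adjusted p = 0.158, exact permutation test).

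WNT5A, a ligand of the non-canonical WNT pathway linked to melanoma invasion, lies on the minus strand at chr3:55465715-55505263. Factor peaks were few and seen once each: anti-MAFG in replicate 1 of GFP cells at chr3:55476152-55476506 (fold 5.04), anti-MAFG in replicate 2 (fold 3.71) and anti-MITF in replicate 3 (fold 4.57). The last of these, chr3:55487065-55487508, and the anti-MAFG peak of replicate 2 both covered the second listed start and most of the WNT5A sequence shown. MAFG cells had 0 factor peaks in the window, and the difference was -0.50 (adjusted p = 0.282, exact permutation test).

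JUN, the AP-1 subunit that can bind DNA as a homodimer or with FOS proteins, is a short gene on the minus strand at chr1:58780791-58784047. Its window held 1, 2 and 1 anti-MAFG peaks in GFP cells and 1, 3 and 2 anti-MITF peaks, against 0 of either in all 6 libraries of MAFG cells. The groups did not overlap (difference -1.67 peaks per window). The anti-MAFG region, chr1:58781970-58784051, overlapped part of the gene itself in 3 of 3 libraries, with best folds of 10.0045, 10.2 and 5.73. Anti-MITF had 1 consensus region over part of the gene with its start, chr1:58781990-58784067, in 2 libraries, and 1 upstream, chr1:58784417-58785314, in 3. The TGACATCA of the JUN sequence shown, at chr1:58784107-58784114, lay between them and in no factor peak, but inside the H3K4me3 peak of both lines.

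FOSL1, the FOS-family partner of JUN also called FRA-1, lies at chr11:65892049-65900545 in a gene-dense stretch with CCDC85B 414 bp, FIBP 3578 bp and CTSW 8308 bp away. No anti-MAFG library had a peak in its window. Anti-MITF gave 2, 0 and 2 peaks in GFP cells against 0 in each library of MAFG cells (difference -0.67, adjusted p = 0.493, exact permutation test). Of those 4 peaks, 2 were nearest to CCDC85B and 1 to FIBP. The fourth, chr11:65898709-65899704, was inside FOSL1 and was called in 1 library (fold 5.36).

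POU3F2, the neural POU-domain factor also called BRN2, is a short gene on the plus strand at chr6:98834574-98839458. Each antibody gave 3, 2 and 1 peaks in GFP cells against 0 in every library of MAFG cells (difference -2.00 peaks per window), with no overlap between the lines. The anti-MAFG consensus region, chr6:98838960-98840237, covered the end of the gene in 3 of 3 libraries of GFP cells, with folds of 8.23, 7.41 and 5.92. Anti-MITF had 3 consensus regions, each in 2 libraries, of which chr6:98839410-98840586 had the best mean rank and overlapped the anti-MAFG region. Its highest peak ranked at 37.0% of its list, close to the 35.6% of chr6:98836374-98836708, a peak inside POU3F2 in the same library. All factor regions of POU3F2 lay under H3K4me3 of GFP cells.

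ZEB1, the zinc-finger repressor of E-cadherin, and SOX9, a neural crest factor, showed almost nothing. ZEB1 spans chr10:31318417-31529804, and the only factor peak in this long window was an anti-MAFG peak in replicate 1 of GFP cells, chr10:31515810-31516166 (fold 5.60). Its difference was -0.17 (adjusted p = 1, exact permutation test). SOX9, at chr17:72121020-72126416, had no peak of any antibody in any of the 14 lists. Among all genes 33.4% had no factor peak in any of the 12 libraries.

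Anti-MAFG and anti-MITF shared places at these genes about as often as elsewhere. Of the 12 anti-MAFG consensus regions of GFP cells in the windows, 7 shared at least 1 bp with one of anti-MITF (58.3%, against 56.8% of all such regions in gene windows). In the other direction, 7 of 14 anti-MITF regions were shared (50%, against 55.7%). H3K4me3 covered 4 of the 12 (33.3%, against 37.2%) and 7 of the 14 (50%, against 54.2%). Most peaks were inside gene bodies, 45 of 51 for anti-MAFG and 33 of 49 for anti-MITF in GFP cells.

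H3K4me3 was called in the windows of 8 genes in GFP cells (65.1% of all genes) and of 7 in MAFG cells (60.8%), with 1 library per line and therefore no test. EGFR and SOX9 lacked it in both lines. NGFR had a peak over its low-coordinate end in GFP cells (chr17:49495389-49496991, fold 10.7, 18 summit fragments) and none in MAFG cells, a pattern of 4.45% of all genes. AXL had 2 weak peaks of its own in GFP cells, chr19:41220003-41220327 (fold 4.47) and chr19:41226041-41227080 at the second listed start (fold 4.73), and neither in MAFG cells. They held 6 and 11 summit fragments. A called H3K4me3 summit held at least 5 fragments in GFP cells and 12 in MAFG cells, at depths of 1.81 and 2.24 fragments per kb. Those fragment numbers are before scaling, by 1 in GFP cells and 0.35 in MAFG cells, and are not directly comparable between the lines. Relative to genome-wide background the 2 AXL peaks were at 10.6 and 19.4 times. Whether the mark was lost at AXL was not tested. The remaining peak in the AXL window was at the start of HNRNPUL1 in both lines.

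At the genes marked in both lines, the authors' fold was lower in MAFG cells throughout, while the recovered signal differed less. FOSL1 had a fold of 116 in GFP cells against 46.7, with signals of 346 and 235 times genome-wide background. POU3F2 had folds of 94.2 and 41.4 and signals of 312 and 250.7. TEAD1 had folds of 72.0 and 19.6 but signals of 205 and 202, its local background being 1.10 and 6.38 times the genome-wide level. JUN had folds of 51.9 and 16.9 with signals of 162 and 135, and ZEB1 folds of 52.6 and 24.7 with the same pair of signals. WNT5A was the lowest of the 6 by signal and the only one above GFP cells in MAFG cells, at 68.8 and 80.7, with folds of 15.8 and 10.3. Over the 9 peaks that paired between the lines in the windows, the signal ratio ranged from 0.649 to 1.17 with a median of 0.835, and the fold ratio from 0.179 to 0.834 with a median of 0.402. The same medians over 9496 paired peaks were 0.942 and 0.480. The sets differ, because peaks with the most extreme p-values had their signal solved only in the windows of the 10 genes. Such peaks of FOSL1 and POU3F2 (−log10 p of 399 and 334 in GFP cells) are among the 9. Those elsewhere are missing from the 9496. Not all of the 9 are marks of the genes themselves. They include the peak at the start of HNRNPUL1 in the AXL window (signal ratio 0.858, fold ratio 0.196). Both lowest ratios, 0.649 and 0.179, came from chr11:65887196-65893907 in the FOSL1 window, whose summit was nearest to CCDC85B.

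**Figure D4:**
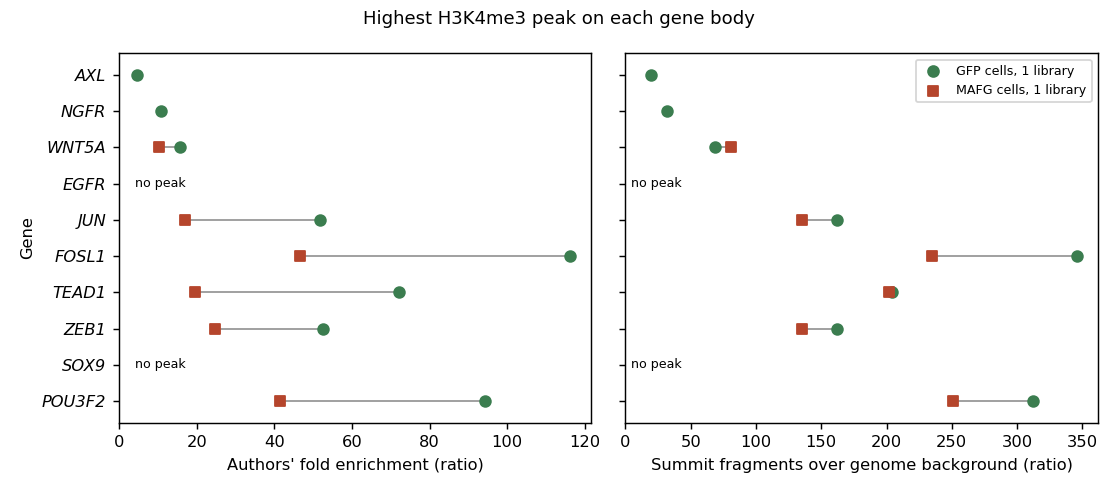
Highest H3K4me3 peak on the body of each gene in 1 library of GFP cells (circles) and 1 of MAFG cells (squares), as the authors' fold (left) and as summit fragments over genome-wide background (right). The fold is lower in MAFG cells at all 6 genes marked in both, while the signal is nearly equal for TEAD1 (205 and 202) and higher in MAFG cells for WNT5A (68.8 and 80.7).

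Many peaks of GFP cells at the 10 genes had a signal below the weakest summit called in the MAFG-cell lists. The weakest called summit was at 19.2 to 21.4 times genome-wide background in the anti-MAFG lists of MAFG cells, and at 9.21 to 11.4 times in those of GFP cells. Of the 51 anti-MAFG peaks of GFP cells at the 10 genes, 27 were below the lowest of these limits and 17 at or above the highest. For anti-MITF, with limits of 19.8 to 21.8 times, 16 of 49 were below and 29 at or above. The limits are the weakest summits seen in the lists. At unchanged signal, a peak below the lowest limit would be weaker than every summit called in MAFG cells. Whether such a peak was lost cannot be told from these lists. The counts include peaks whose region was also called in MAFG cells, such as chr11:12813773-12815575 of TEAD1 (15.8 and 19.1 times in GFP cells). The limit is that of a whole list and leaves out the local background of a site. Whether it accounts for the peaks not called was not tested.

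Other genes of the same pathways were taken from lists. Among 15 further receptors and ligands of the dedifferentiated state, 6 were lower in MAFG cells by the exact permutation test and 0 higher, beside 24.9% and 0% of all genes tested. An anti-MAFG consensus region was present in MAFG cells at 4 of them, IGF1R, ROR1, TGFBR2 and TGFBI, beside 5.1% of all genes, and an anti-MITF one at IGF1R, ROR1 and TGFBI, beside 8.22%. Neither share over all genes was matched for window length. Of 7 further AP-1 genes 6 were tested, with 0 lower and 0 higher. FOS, the classical partner of JUN, had an anti-MAFG region at chr14:75276994-75278782 in 1 of 3 libraries of GFP cells (fold 3.69) and 3 of 3 of MAFG cells (folds of 11.3 to 18.9). Of 10 YAP and TEAD pathway genes 9 were tested, 3 were lower and 0 higher, and WWTR1, which encodes TAZ, kept an anti-MITF region. Of 12 further lineage and mesenchymal transcription factors 10 were tested, 7 were lower and 0 higher. ZEB2 kept an anti-MAFG region, SOX10 kept an anti-MITF region, and SNAI1 had an anti-MITF region (chr20:49978521-49979034) in 0 of 3 libraries of GFP cells and 2 of 3 of MAFG cells (folds of 6.24 and 6.28). The lists' median differences were -1.17, -1, -0.83 and -2.00 peaks per window, against -0.83 for all genes tested. The list medians include listed genes that were not tested, at a difference of 0, and the value for all genes tested leaves such genes out.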

How the data were processed

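The 14 deposited narrowPeak lists, 1 per library, were used. Per the submitters' processing notes, reads were handled with cutadapt 1.8.1, Bowtie2 2.4.1, MACS2 2.1.1.20160309, ChIPseeker 1.32.1 and deepTools, on GRCh38 (hg38). The authors' values per peak are a fold enrichment (a linear ratio), the p-value and the q-value as −log10, and a display score that was not analysed. The caller's control and settings are not given in the sources used here.

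The genes, related lists and tests were chosen with earlier results of these data known. Protein-coding genes of the RefSeq table (GRCh38.p14) were extended by 10 kb, and a peak counted with 1 bp of overlap. Peaks of an antibody's 6 libraries were merged into regions. All 10 genes are named, with their best-ranked region per antibody, regions called in 2 of 3 libraries of MAFG cells, and H3K4me3 peaks. Related genes are named where such a region was found in MAFG cells. Peaks are not read counts, so depth came from solving each deposited fold and p-value for a whole number of summit fragments, a library scale and a local background, using fold = (summit + 1) / (background + 1) and a Poisson tail. With a tolerance of 0.002, this matched 100% of peaks in the 12 factor libraries, and 94.6% and 99.98% in the H3K4me3 libraries of GFP and MAFG cells. A scale multiplied by 0.9 matched 11.7% to 17.8%. Signals rest on that formula, which the authors do not state. Analyses used Python 3.11.15, pandas 2.3.3, numpy 2.4.6 and SciPy 1.17.1, and were tested on simulated data. At most 0.284% of peaks were identical between 2 replicates.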

Additional observations from a re-analysis of the deposited data

How the results depend on the processing

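Alternatives are other windows (no flank, 50 kb), summits in place of overlaps, a −log10 q of at least 5, equal numbers of peaks, 3 of 3 libraries, covered base pairs, a wider correction and each library left out. After seeing the data, leaving out peaks at neighbouring genes and using recovered signal were added. Without flanks, anti-MITF consensus regions of GFP cells lay at 4 genes, 77.8% of them overlapped anti-MAFG, 2 genes were called and the anti-MITF difference in peaks per library was -11. With 50 kb the last was -24, and FOSL1 was called (adjusted p = 0.0371, exact permutation test). At a −log10 q of at least 5, the anti-MITF consensus count was 4 and the differences were -8.33 (anti-MAFG) and -8.67 (anti-MITF). With equal numbers of peaks, consensus counts in GFP cells were 1 (anti-MAFG) and 0 (anti-MITF), 0 genes were called, and the differences were 0.333 and 0; TEAD1 turned to 0.667 over both antibodies, 1 for anti-MAFG and 0.333 for anti-MITF. With 3 of 3 libraries, no gene had an anti-MAFG consensus region in MAFG cells (0). Leaving out 1 library gave 0 to 2 there, 5 to 7 for anti-MITF in GFP cells, and 4 calls each time. Without peaks at neighbouring genes, the anti-MITF consensus count was 5. Among all genes 3318 were lower, against 5803 by covered base pairs, 1869 at the stricter q and 9000 with 50 kb. An overlap share for MAFG cells could not be given, as no anti-MITF consensus region was there. The causes were not tested.

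Whether replicate numbers pair the libraries is not settled here. Deviations of same-numbered libraries correlated at -0.00497 to 0.0256 over genes, and those of different-numbered libraries at -0.0181 to 0.00606. For anti-MAFG every same-numbered value (0.0129, 0.00641 and 0.0256) was above every different-numbered one, and for anti-MITF the values overlapped. Most windows hold few peaks in MAFG cells, so low correlations cannot exclude pairing. With the replicate number as a block, 0 genes were called; the smallest p of that exact test is 0.0312 (adjusted p = 0.127 for EGFR, JUN, TEAD1 and POU3F2), which 3298 genes reached unadjusted at 0.05 or less.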

Other observations

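SOX9, which had no peak in its window, also had none of any antibody in either line when the window was widened to 50 kb and to 100 kb on either side. With 500 kb on either side, anti-MAFG gave 12, 9 and 4 peaks with GFP and 2, 1 and 3 with MAFG overexpressed. Anti-MITF gave 15, 12 and 16 against 4, 2 and 2, and H3K4me3 gave 6 and 4. Windows of that size hold other genes as well, and the same counts were not made there for all genes.

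The 4 genes lower in MAFG cells are not alike in layout. JUN and POU3F2 are short genes whose factor regions lay at or next to H3K4me3, whereas the strongest regions of EGFR and TEAD1 lay far inside long gene bodies without the mark. The 2 anti-MAFG regions called in at least 2 libraries of each line lay inside those long gene bodies without the mark. That of TEAD1 was not a leading region in GFP cells, with a mean rank of 55.9%, against 16.6% for chr11:12826996-12829530. Beside the 10 genes, FOS and SNAI1 were the listed genes whose consensus region in MAFG cells was called in more libraries of MAFG cells than of GFP cells, although SNAI1 as a whole had fewer factor peaks in MAFG cells (difference -1.33 peaks per window, adjusted p = 0.0213, exact permutation test) and FOS did not pass the test (difference -1.17, adjusted p = 0.205, exact permutation test).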
